A study of Homo sapiens with 2 samples.

Results

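The skeletal muscle area of Tumor-899 is the set of spots in which transcripts of muscle contraction gathered, mostly in 1 strip that reached the last row of the array. Its members were chosen from measured values. Among spots with at least 500 unique molecular identifiers (UMIs, each a captured RNA molecule), a muscle spot held at least 5 UMIs summed over ACTA1, TNNT3, MYH1, MYH4, CKM and MYLPF. By this rule 168 of the 2841 spots of Tumor-899 were muscle spots, or 5.91%, of 5377 spots in both tumors. They were set against 304 nearby muscle-poor spots of the same section, which held 0 or 1 of these UMIs and lay 1 to 4 array steps from a muscle spot. A further 2150 muscle-poor spots lay farther away and 219 spots held 2 to 4 of the UMIs. The other section, from Tumor-897, had 4 muscle spots among 2536, with 162 nearby muscle-poor spots.

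The tumors came from the triple-negative breast cancer cell line MDA-MB-231 (human, established), which here carries a hypoxia fate-mapping reporter. They were harvested at day 18 after implantation without treatment, frozen, and cut at 10 µm, with 1 section per tumor on a Visium slide, an array of barcoded spots that each take up RNA of a small patch, often of several cells. Both tumors are in the same group, and all spots compared here share this cell line, reporter and handling. The labels name neither the host nor the implantation site, and the images were not used here. The matrix holds only human genes. Host RNA whose reads map to a human gene is therefore counted with that of the tumor line and cannot be told apart from it. RNA whose reads map to no human gene is not counted, so a gene without UMIs is not shown to be absent. The study asks about cells that met low oxygen, and the muscle area is a feature of one of its sections.

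Skeletal muscle fibres are long cells filled with sarcomeres, in which thick filaments of myosin pull on thin filaments of actin. Troponin and tropomyosin on the thin filament make the pull depend on calcium, which the sarcoplasmic reticulum releases and takes up again. Creatine kinase and a muscle-specific set of glycolytic enzymes keep ATP supplied. Fibres differ in speed, and the myosin heavy chain genes MYH4, MYH1 and MYH2 mark fast fibres of type IIb, IIx and IIa, while MYH7 marks slow fibres.

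Nearly all muscle spots formed one strip. Of the 168 spots, 162 adjoined each other in a single connected patch and 6 stood alone inside the section. Muscle spots ran over array rows 60 to 77 and columns 33 to 119, and row 77 is the last of the frame. All 21 kept spots of that last row were muscle spots, so the strip reached the end of the captured area. Muscle spots lay a median of 4 array steps from the border of the tissue, against 8 steps for nearby spots, and 31.5% of muscle spots against 10.9% of nearby spots were within 2 steps of it.

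The 6 lone spots were unlike the strip. They held a median of 5 UMIs of the 6 genes, against 28 in the strip, and a level of 112 CPM of MYLPF and 26.3 CPM of ACTA1 (UMI counts per 1000000 UMIs of the same group of spots), against 571 and 1112 CPM in the strip. TTN, CRYAB and THBS4, which the rule did not use, had 0 UMIs in them. Because each lone spot brings its own surroundings, 167 of the 304 nearby spots lay within 4 steps of a lone spot and of no spot of the strip, and 137 lay beside the strip. Named genes outside the muscle lists whose fold moved by over 1.5 times when the strip was set against its own 137 spots are given with both values. This second comparison was added after the data were seen.

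**Figure D1:**
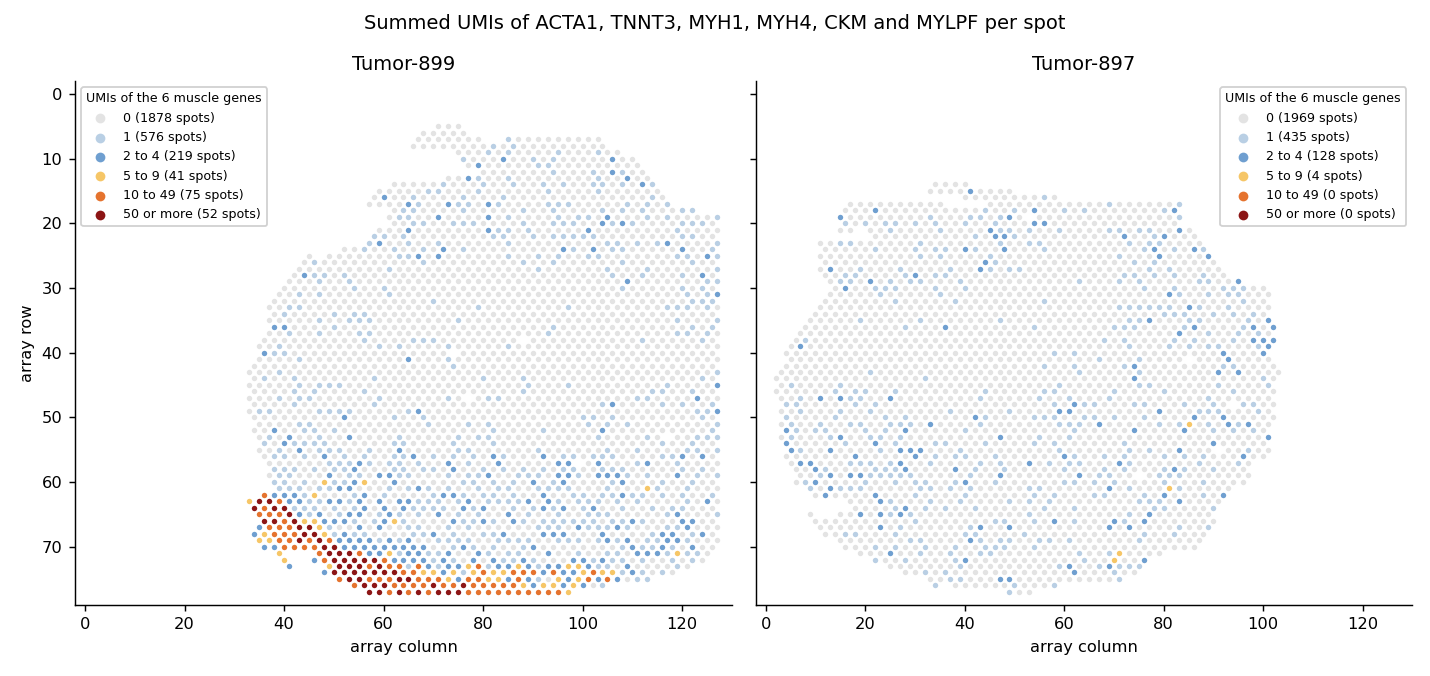
Each point is a spot at its array column and row, coloured by its summed UMIs of the 6 muscle genes, for Tumor-899 on the left and Tumor-897 on the right. In Tumor-899, the 52 spots with 50 or more such UMIs and the 75 with 10 to 49 lie at the high row numbers, whereas in Tumor-897 no spot reached 10 and 4 spots held 5 to 8.

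Muscle spots had fewer counted UMIs than the spots around them. They had 3810 to 29125 UMIs with a median of 11653, against 2030 to 38504 with a median of 22443.5 in nearby spots, and medians of 4010.5 and 5811 detected genes. Summed, the muscle spots gave 2181822 UMIs and the nearby spots 6738489 UMIs. The total was lower where muscle transcripts were more plentiful. Spots with 50 or more UMIs of the 6 genes had a median of 9550.5 UMIs, those with 10 to 49 had 12524, and those with 5 to 9 had 18822. Across the 168 spots, the UMIs of the 6 genes and all UMIs of a spot had a Spearman rho of -0.48 and a Pearson r of -0.44, a description over spots that share a library and overlap in the genes counted. Fewer cells per spot, less RNA per cell and RNA that maps to no human gene, which is not counted, cannot be told apart here. Even so, UMIs of genes in 9 muscle lists made up 0.646% of all UMIs of the muscle spots and 0.153% of those of nearby spots, and the rest came from other genes. These lists hold genes that were as frequent outside the muscle spots, such as TPM3 with 1236 UMIs in muscle spots and 3854 in nearby ones. TPM3 was at 566 and 572 CPM. The 6 rule genes alone, which chose the spots, made up 0.281% and 0.0022%.

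**Figure D2:**
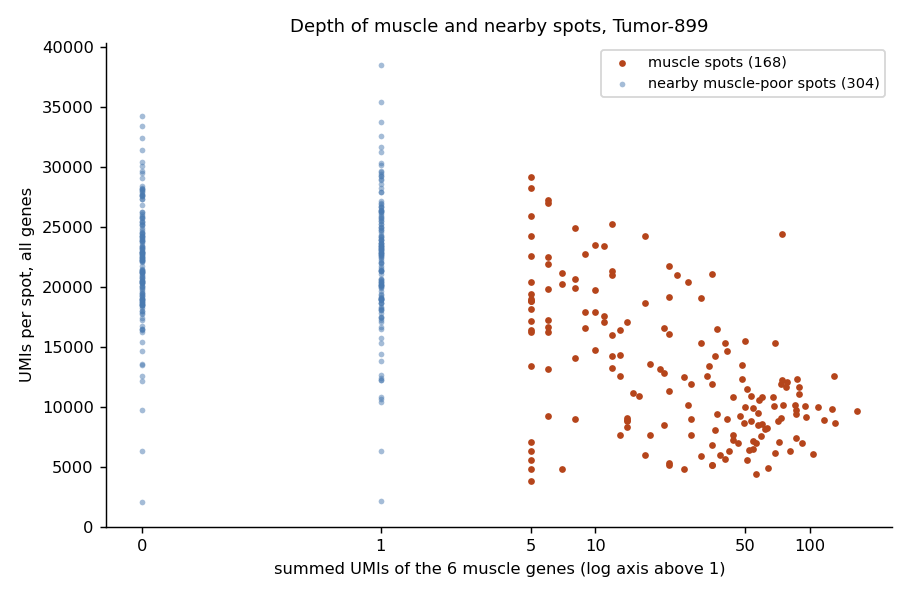
Each point is a spot of Tumor-899, with its summed UMIs of the 6 muscle genes on the horizontal axis (log scale above 1) and its UMIs over all genes on the vertical axis. The 168 muscle spots have a median of 11653 UMIs and the 304 nearby muscle-poor spots a median of 22443.5.

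The 6 genes that chose the spots are given here as a description, since a high level of them is what made a spot a muscle spot. Levels are in CPM, with exact 95% Poisson intervals that cover counting error only. Each gene was counted in at least 66.1% of the muscle spots, and no spot needed more than a few of them to pass. ACTA1, the actin of the skeletal thin filament (ENSG00000143632, chromosome 1, 229431245 to 229434094 in GRCh38.p14), had 0 to 69 UMIs per muscle spot with a median of 10, and was seen in 95.8% of them. Its level was 1036 CPM in muscle spots (994 to 1079), 4.75 in nearby spots (3.25 to 6.70) and 1.11 in muscle-poor spots farther away (0.74 to 1.59). TNNT3, the fast troponin T that ties troponin to tropomyosin (ENSG00000130595, chromosome 11, 1919552 to 1938702), had 0 to 25 UMIs per muscle spot with a median of 3. It totalled 747 UMIs in muscle spots, 6 in nearby spots and 9 farther away.

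CKM, the muscle creatine kinase (ENSG00000104879, chromosome 19, 45306413 to 45322875), had 0 to 23 UMIs per muscle spot with a median of 2, and totalled 668 UMIs in muscle spots, 9 in nearby spots and 12 farther away. MYH1, the myosin heavy chain of IIx fibres (ENSG00000109061, chromosome 17, 10492307 to 10518542), had 0 to 20 UMIs per muscle spot with a median of 3, and totalled 773, 16 and 16 UMIs in the same order. MYH4, the heavy chain of IIb fibres (ENSG00000264424, chromosome 17, 10443263 to 10469559), had 0 to 18 UMIs per muscle spot with a median of 2, and totalled 498 UMIs in muscle spots against 2 in nearby spots and 10 farther away. MYH1, MYH4 and MYH2 are near-identical neighbours, so reads can be split between them and their single counts are uncertain. MYLPF, the fast regulatory light chain of myosin, stood apart from the other 5 genes outside the strip. It had 0 to 29 UMIs per muscle spot with a median of 5.5 and a level of 539 CPM in muscle spots, against 12.3 in nearby spots and 13.5 farther away. A UMI of it was seen in 27.3% of nearby spots and in 16.4% of the spots farther away, whereas ACTA1 was seen in 10.5% and 1.35% of the same spots. Without MYLPF in the rule, 144 spots of Tumor-899 and 4 of Tumor-897 passed the same threshold.

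The promoters of the genes that defined the area are shown because these genes were high together in it. RefSeq promoter windows on GRCh38.p14 were found for 4 of the 6 genes, and the 250 bases before the start were searched on both strands for the E-box CANNTG, which muscle determination factors bind, and for the CArG box of serum response factor and the MEF2 site, each by its consensus. Capitals mark the matches. All 4 genes lie on the minus strand, and the windows are chr1:229434095-229434344 for ACTA1, chr17:10518543-10518792 for MYH1, chr17:10469560-10469809 for MYH4 and chr19:45322876-45323125 for CKM.
ACTA1: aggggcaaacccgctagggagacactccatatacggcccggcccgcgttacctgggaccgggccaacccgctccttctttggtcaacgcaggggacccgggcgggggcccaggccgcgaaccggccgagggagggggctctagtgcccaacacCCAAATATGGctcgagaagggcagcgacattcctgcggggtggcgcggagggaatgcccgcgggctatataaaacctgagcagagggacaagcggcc
MYH1: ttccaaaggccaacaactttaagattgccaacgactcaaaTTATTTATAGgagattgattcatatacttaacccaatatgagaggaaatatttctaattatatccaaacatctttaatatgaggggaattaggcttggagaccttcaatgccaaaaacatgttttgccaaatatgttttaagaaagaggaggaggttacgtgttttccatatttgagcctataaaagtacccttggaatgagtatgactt
MYH4: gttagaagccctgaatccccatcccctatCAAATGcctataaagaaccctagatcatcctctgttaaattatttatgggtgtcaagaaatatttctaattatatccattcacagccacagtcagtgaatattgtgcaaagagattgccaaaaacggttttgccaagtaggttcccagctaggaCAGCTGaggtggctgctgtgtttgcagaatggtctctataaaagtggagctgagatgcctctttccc
CKM: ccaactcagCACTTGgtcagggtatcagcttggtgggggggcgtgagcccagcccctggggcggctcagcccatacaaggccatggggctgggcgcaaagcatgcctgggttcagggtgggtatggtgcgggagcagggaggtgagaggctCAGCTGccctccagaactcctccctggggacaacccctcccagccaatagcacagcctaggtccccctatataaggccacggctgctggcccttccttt
The ACTA1 window held 1 CArG box, the MYH1 window 1 MEF2 site, and the MYH4 and CKM windows 2 E-boxes each. Of all 27303 promoter windows, 62.2% held an E-box, 1.14% a CArG box and 2.90% a MEF2 site. Of 64 windows found for 89 skeletal muscle genes listed for this work, 78.1% held an E-box, 7.81% a CArG box and 29.7% a MEF2 site. The matches are letters in a window and say nothing of binding in these cells.

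Tumor-897 held muscle transcripts at a far lower level. Its 4 muscle spots had 5, 6, 7 and 8 UMIs of the 6 genes, against a median of 27 and a highest value of 165 in Tumor-899, although their depth was no lower, at 14477 to 32278 UMIs per spot. In the 4 spots together there were 16 UMIs of ACTA1, 4 of MYLPF, 3 of CKM, 2 of TNNT3, 1 of MYH1 and 0 of MYH4. Over all kept spots, Tumor-899 and Tumor-897 had 2421 and 106 UMIs of ACTA1, 788 and 16 of TNNT3, 838 and 11 of MYH1, 533 and 6 of MYH4, and 716 and 23 of CKM. MYLPF differed less, with 1920 and 583 UMIs, and it was seen in 27.3% and 19.0% of the spots. The total over all genes was 39735490 UMIs in Tumor-899 and 58661164 in Tumor-897, so the smaller muscle counts of Tumor-897 stood beside the larger total. With 1 section per tumor, this difference has no replicate check. The libraries share 1627 barcodes over tissue, which are fixed positions of the array and not shared cells.

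Few of the measured genes differed by 2-fold between muscle spots and nearby spots. Over 10538 genes with at least 50 UMIs in muscle and nearby spots together, 78 were at least 2-fold higher in muscle spots, which is 0.74% of the genes, and 75 were at least 2-fold lower, which is 0.712%. The other 98.5% lay within 2-fold, and the median log2 fold (muscle over nearby, in CPM) was -0.04. No p-value belongs to these counts, because 1 section gives 1 value per group of spots. The choice of spots on muscle transcripts also fixes in part which genes lead. Of the 78 higher genes, 37 had under 100 UMIs in all, and of the 75 lower genes, 54 did. Among the 8837 genes with at least 100 UMIs, 41 were higher and 21 lower. With the strip set against its own nearby spots, 64 genes were higher and 34 lower. Of 118 muscle genes in 9 lists, including the 6 of the rule, 42 passed the minimum of 50 UMIs and 26 of these were at least 2-fold higher, none lower. Many passed only through the muscle spots, so they had to differ. Without any minimum, 76 of the 112 listed muscle genes outside the rule had a higher level in muscle spots, 14 a lower one, and 22 had no UMI in either. The remaining 52 of the 78 higher genes were outside these lists.

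**Figure D3:**
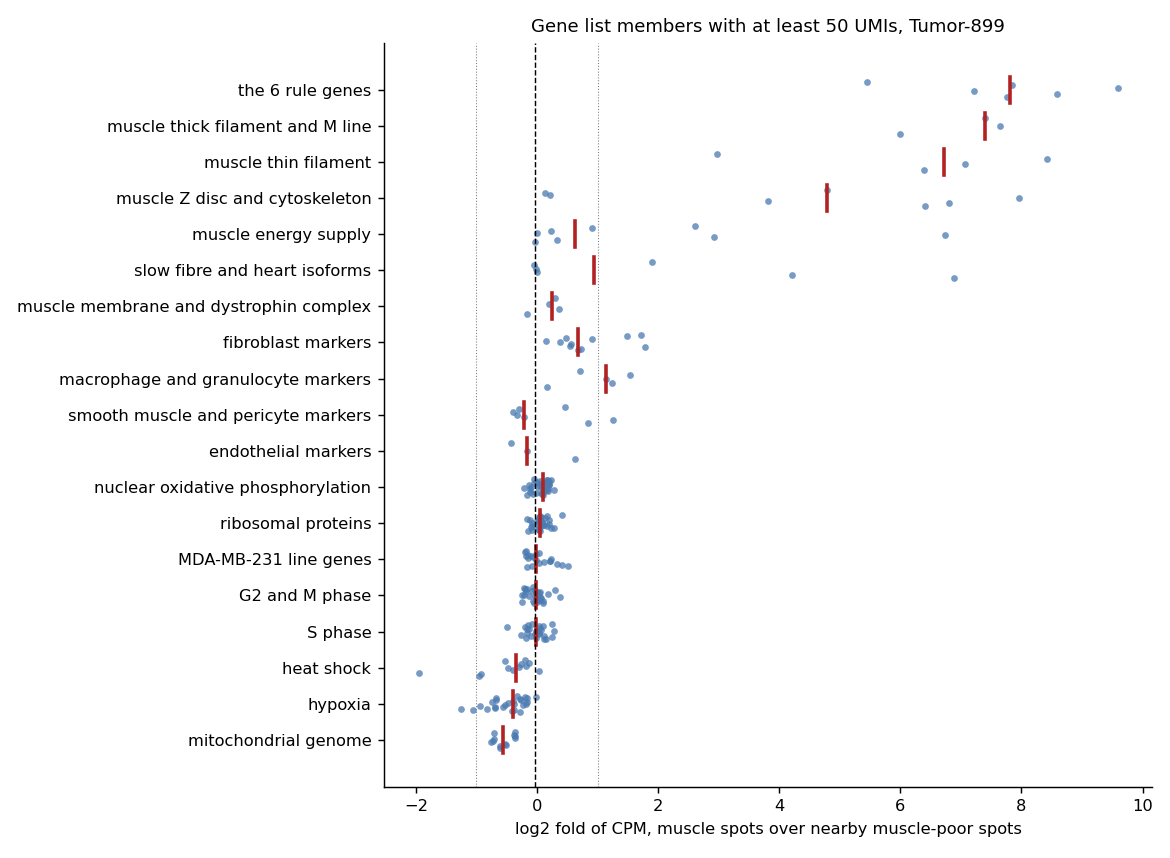
Each point is a listed gene with at least 50 UMIs in muscle and nearby spots of Tumor-899 together, placed at its log2 fold of muscle over nearby spots. Red bars are list medians, the dashed line is the median of all genes at -0.04 and the dotted lines mark 2-fold. The 6 rule genes and the filament lists lie at the right, most lists near 0, and the hypoxia (median -0.40) and mitochondrial genome (median -0.57) lists to the left.

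In the thin filament list, 4 of 10 members passed the minimum. All 4 were at least 2-fold higher in muscle spots, against 0.74% of all measured genes, and their median log2 fold was 6.73. Here and in the muscle lists that follow, members that passed only through the muscle spots had to be higher. The counts past 2-fold and the medians are therefore a description. Without a minimum, 8 of the 10 members had a higher level in muscle spots, 1 a lower one, and 1 had no UMI in either group. TNNI2, the fast troponin I that blocks the filament at rest, had 545 UMIs in muscle spots and 20 in nearby spots, a ratio of levels of 84.2 (95% counting interval 54.0 to 139). TNNC2, the troponin C that binds calcium, had 432 and 10 UMIs and a ratio of 133 (71.9 to 280). NEB, the giant ruler protein nebulin, had 111 UMIs and 1 UMI, with a ratio of 343 and an interval of 60.3 to 13661. Its log2 fold was 8.42, and 7.31 for the strip against its own nearby spots. TPM2, the beta tropomyosin, was also frequent outside the strip. It had 758 and 300 UMIs, a ratio of 7.80 (6.82 to 8.95), and was seen in 90.5% of muscle spots and 60.9% of nearby spots. Its level was 43.3 CPM in the spots farther away and 53.2 in Tumor-897, so TPM2 did not mark muscle alone.

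The thick filament and M line list had 3 of 10 members past the minimum and all 3 were at least 2-fold higher. With no minimum, 9 of the 10 had a higher level in muscle spots and 1 a lower one. TTN, the spring protein titin, had 653 UMIs in muscle spots and 12 in nearby spots, a ratio of 168 (95.6 to 327), and was seen in 70.8% and 3.29% of them. MYH2, the heavy chain of IIa fibres, had 249 and 12 UMIs, a ratio of 64.1 (36.0 to 126). The log2 fold of MYH2 was 5.02 for the strip against its own nearby spots. MYL1, the fast essential light chain, had 65 UMIs and 1 UMI. MYOM3, a protein of the M line, had no UMI in the muscle spots.

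The Z disc, where thin filaments are anchored, had 7 of 18 members past the minimum and 5 of them at least 2-fold higher. Counted without a minimum, 15 of the 18 had a higher level in muscle spots, none a lower one, and 3 had no UMI in either group. The alpha-actinins ACTN2 and ACTN3 had 82 and 72 UMIs in muscle spots against 3 and 2 in nearby spots. DES, the muscle intermediate filament desmin, had 81 UMIs against 1 UMI. FLNC, a filamin, was within 2-fold (log2 0.22), with 165 UMIs in muscle spots and 438 in nearby spots.

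For calcium handling, 1 of 17 members passed the minimum. This was ATP2A1, the fast calcium pump, with 75 UMIs in muscle spots and 3 in nearby spots. Over all 17 members, 10 had a higher level in muscle spots, 1 a lower one, and 6 had no UMI in either group. PVALB, the calcium buffer parvalbumin, had 48 UMIs in muscle spots and 0 in nearby spots, which is at least 49.4-fold higher against a limit of 3 counts over the nearby spots. TRDN, which holds the release channel in place, had 30 and 0 UMIs, at least 30.9-fold higher. RYR1, the release channel itself, had 44 UMIs and 1 UMI. There was no UMI in muscle spots of 6 members, namely CACNG1, SLN, SCN4A, CLCN1, STAC3 and ASB2.

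Energy supply genes were split. Of 18 members, 8 passed and 3 were at least 2-fold higher, with a median log2 fold of 0.62. The 3 were ENO3, PGAM2 and EEF1A2, and the last is an elongation factor that the list also held, not an energy enzyme. Over all 18 members, 13 had a higher level in muscle spots, 3 a lower one, and 2 had no UMI in either group. ENO3, the muscle enolase, had 268 UMIs in muscle spots and 109 in nearby spots, a ratio of 7.59 (6.06 to 9.58). PGAM2, the muscle phosphoglycerate mutase, had 69 and 2 UMIs, and CKMT2, the mitochondrial creatine kinase of muscle, had 39 and 0 UMIs, at least 40.2-fold higher against the same limit. EEF1A2, the elongation factor of muscle and nerve, had 113 and 57 UMIs, a ratio of 6.12 (4.41 to 8.57). SLC25A4, the ADP/ATP carrier, was 1.88-fold higher (1.66 to 2.11), and PFKM was 1.26-fold higher (1.03 to 1.54). MB, which encodes the oxygen store myoglobin, had no UMI in either group of spots, and neither had COX7A1, a muscle subunit of cytochrome oxidase. A lack of UMIs does not show absence, since RNA that maps to no human gene is not counted.

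No gene of the membrane list passed 2-fold. Its 4 members past the minimum had a median log2 fold of 0.25, with DAG1, the dystroglycan of the surface membrane, at 1.23-fold (1.06 to 1.42), SGCB at 1.28-fold (0.99 to 1.65), DYSF at 1.15-fold and DMD, the dystrophin gene, at 0.89-fold (0.64 to 1.23). SGCA, a sarcoglycan found mainly in striated muscle, had no UMI in the muscle spots.

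Slow and heart isoforms gave a mixed picture. Of 6 members past the minimum, 3 were at least 2-fold higher. Over all 16 members, 8 had a higher level in muscle spots, 5 a lower one, and 3 had no UMI in either group. MYH7, the slow heavy chain, had 77 UMIs in muscle spots and 2 in nearby spots, and MYL3, its essential light chain, had 90 and 15 UMIs, a ratio of 18.5 (10.7 to 34.5). ACTC1, the heart actin, had 47 and 39 UMIs, but its near-identity to ACTA1 makes its count uncertain. TPM3, TNNT1 and ATP2A2 had ratios of 0.99, 0.99 and 0.96. TNNI1 and TNNC1, the slow troponins, were at 0 UMIs in muscle spots.

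Of 13 genes of young or denervated muscle, 3 passed the minimum and 1, a myosin, was at least 2-fold higher. NCAM1 had 32 UMIs in muscle spots and 52 in nearby spots, and MYH3 had 20 and 36, both within 2-fold. MYH8, the perinatal heavy chain, had 95 UMIs in muscle spots and 2 in nearby spots, with the same caution on near-identical neighbours. MYOG, a transcription factor of differentiating muscle, had 8 and 0 UMIs, and MYOD1 had 1 and 0. PAX7, the marker of satellite cells, and MYF5, MYF6, MYMK, MYMX and CHRND had none in the muscle spots. Of the muscle wasting list, none of 6 members passed 2-fold and the median log2 fold was -0.27. TRIM63, the ubiquitin ligase of wasting muscle, had 2 UMIs in muscle spots and 1 in nearby spots.

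The fast myosins made up different shares along the muscle spots. The muscle spots were split by array column into 4 segments of 40 to 43 spots, a division made after the values were seen. In the segment at columns 33 to 46, MYH4 made up 38.9% of the UMIs of MYH4, MYH1 and MYH2 (exact 95% binomial interval 34.2 to 43.6, 169 of 435 UMIs). The share was 38.1% at columns 47 to 60 (34.3 to 42.1), 22.1% at columns 61 to 79 (17.9 to 26.7) and 10.6% at columns 80 to 119 (5.22 to 18.7, 10 of 94 UMIs). MYH1 took the opposite course, with 42.5%, 46.3%, 61.6% and 77.7% in the same segments, while MYH2 held 18.6%, 15.5%, 16.3% and 11.7%. MYH4 and MYH1 are genes of the rule, the segments were cut with the values known, and the last one held few of these UMIs, so the shares are a description with no test. At columns 80 to 119 MYH1 was at 102 CPM, against 651 CPM at columns 47 to 60.

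The segments also differed in depth and in how much muscle they held. The median UMIs per spot were 8448, 9726, 14036 and 17387.5 along the strip, and the median UMIs of the 6 rule genes were 35, 58, 32.5 and 10. Whether the myosin shares follow these was not tested. CRYAB, a small heat shock protein that guards filaments in muscle and heart, varied less than ACTA1. Its level was 138, 298, 291 and 211 CPM in the 4 segments, while ACTA1 had 1548, 2347, 728 and 220. The ratio of CRYAB to ACTA1 UMIs was therefore 0.09, 0.13, 0.40 and 0.96. CRYAB also went with the amount of muscle, at 79.4, 254 and 440 CPM in spots with 5 to 9, 10 to 49 and 50 or more UMIs of the 6 genes, where ACTA1, itself a gene of the rule, was at 114, 672 and 3063. Across these classes CRYAB per ACTA1 UMI fell as the UMIs of the 6 genes rose. The rule set this fall in part, because ACTA1 is in the sum that cut the classes. By segment the ratio did not follow the rule genes in order, with 0.09 at a median of 35 UMIs and 0.40 at 32.5.

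**Figure D4:**
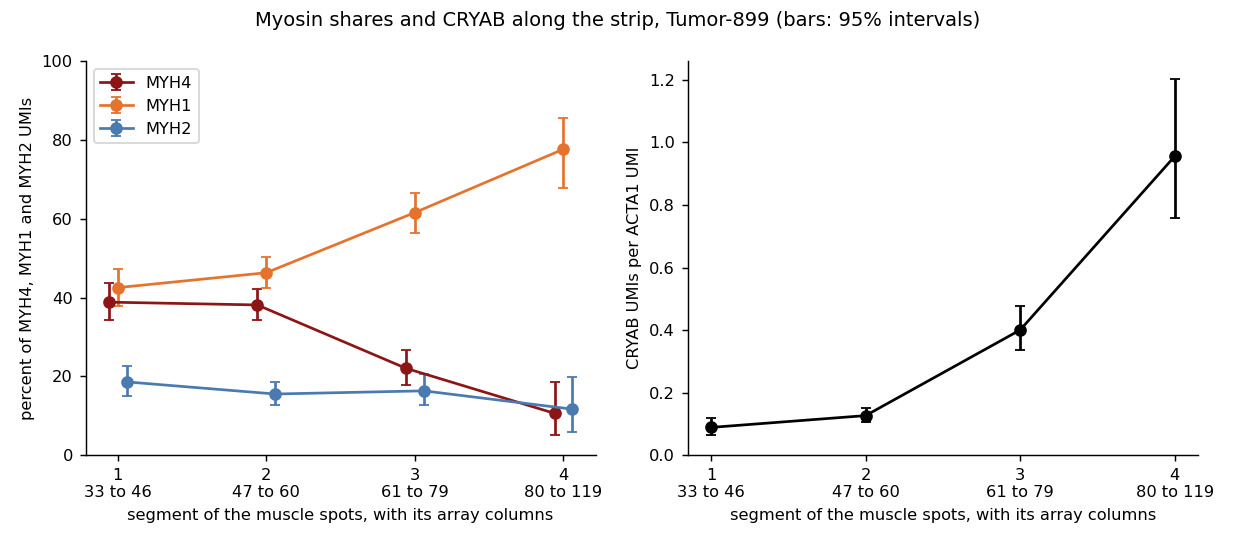
The horizontal axis gives 4 segments of the 168 muscle spots along the array columns. The left panel plots the percent of MYH4, MYH1 and MYH2 UMIs that each gene held, and the right panel plots CRYAB UMIs per ACTA1 UMI, with exact 95% intervals for counting error. MYH4 is at 38.9% in the first segment and 10.6% in the last, and CRYAB per ACTA1 UMI is at 0.09 and 0.96.

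Among the muscle spots, fast sarcomere genes were high in the same spots, the sparser slow genes MYH7 and MYL3 less so. Across the 168 muscle spots, the share of ACTA1 among a spot's UMIs had a Spearman rho of 0.85 with that of TNNT3, 0.84 with TNNC2, 0.82 with TTN, 0.81 with TNNI2 and 0.74 with MYH2. For other genes that the rule did not use, rho was 0.66 with ENO3, 0.59 with ATP2A1, 0.48 with CRYAB and 0.44 with MYL3. It was 0.38 with MYH7, 0.33 with COL3A1, 0.32 with PVALB, 0.15 with THBS4 and 0.07 with HBB. MYH7, MYL3, ATP2A1 and PVALB had 77, 90, 75 and 48 UMIs in muscle spots, fewer than the fast sarcomere genes named. These spots share a library and adjoin each other, the genes differ in how often they were counted, and the rule picked spots on ACTA1 and TNNT3, so the values are a description. Split by UMIs of the 6 genes, TTN had 19.5 CPM in the 41 spots with 5 to 9, 225 in the 75 with 10 to 49, and 845 in the 52 with 50 or more. ENO3 had 25.1, 87.1 and 332 in the same order.

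Muscle transcripts dropped at the first step from the muscle spots and then more slowly. For the non-muscle spots, the mean number of UMIs of the 6 genes per spot was 1.67 at 1 step, 1.08 at 2, 0.78 at 3 and 0.74 at 4 steps, against 36.4 in muscle spots. This drop was set in part by the rule, which made every spot with 5 or more a muscle spot. ACTA1 was at 1036 CPM in muscle spots, 23.1 at 1 step (17.1 to 30.6), 15.4 at 2 (10.8 to 21.3), 9.71 at 3 (6.22 to 14.5), 4.84 at 4 (2.41 to 8.65) and 1.45 at 5 or more (1.04 to 1.96). The intervals of neighbouring rings overlapped from 1 to 4 steps, and those at 4 steps and at 5 or more did not. ACTA1 is a gene of the rule, so these levels are a description. TTN, which the rule did not use, was at 299 in muscle spots, 3.78 at 1 step, 1.71 at 2, 1.21 at 3, 0.44 at 4 and 0.32 at 5 or more. Counted from the strip alone, TTN was at 5.48, 3.09, 0.90 and 0 from 1 to 4 steps and ACTA1 at 33.7, 21.6, 16.2 and 7.25. MYLPF levelled off around the muscle spots of the rule, at 28.8 at 1 step, 19.2 at 2, 19.8 at 3, 20.7 at 4 and 19.1 at 5 or more.

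**Figure D5:**
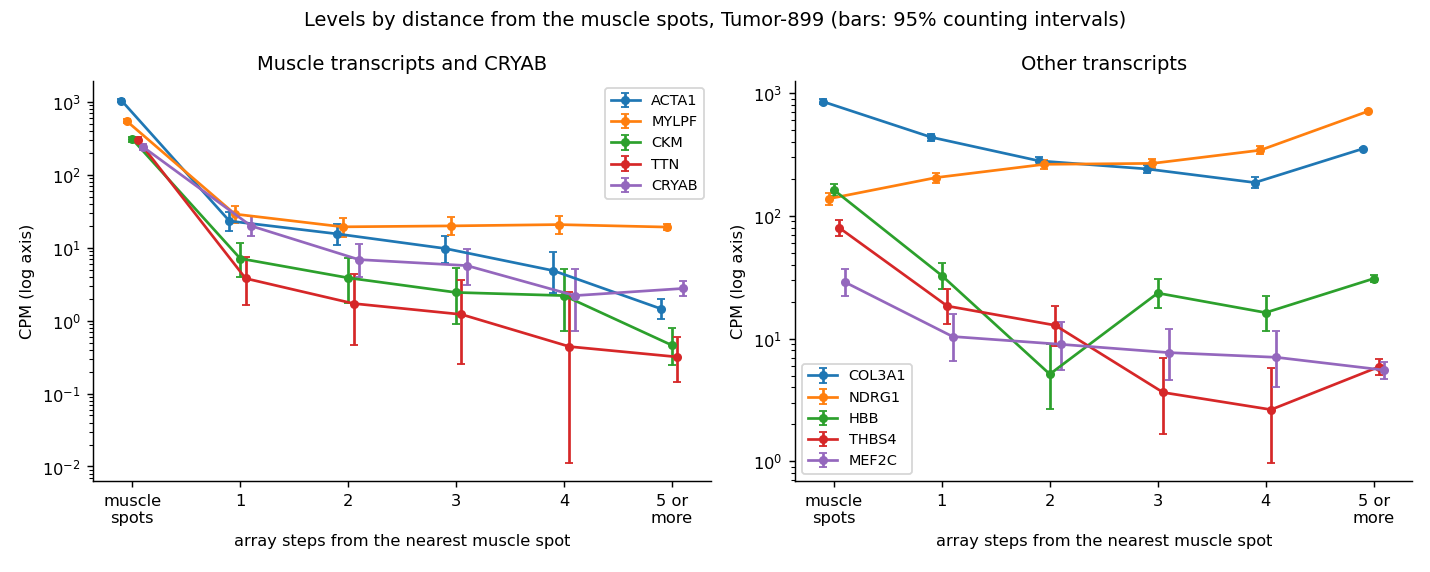
CPM on a log axis are plotted for the muscle spots and for the other spots of Tumor-899 at 1, 2, 3, 4 and 5 or more array steps, with exact 95% Poisson intervals. ACTA1 is at 1036 in muscle spots and 23.1 at 1 step, MYLPF stays near 19 to 21 from 2 steps on, and NDRG1 is lowest in the muscle spots at 137 and highest at 5 or more steps at 711.

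The threshold of 5 UMIs cut through a gradual margin. The 20 spots with exactly 5 such UMIs had 26.9 CPM of the thick filament list and 152 of the thin filament list, against 13.8 and 77.1 in the 19 spots with exactly 4. Of these 19 spots, 13 were 1 step from a muscle spot and all lay within 4 steps. Each spot was also thinned to 2000 UMIs. A UMI of the 6 genes then remained in 88.7% of muscle spots (82.9 to 93.1, exact binomial), against 14.8% of spots at 1 step, 7.0% at 4 steps and 3.7% of 1641 spots at 5 or more, where 608 shallower spots were left out. Before thinning these shares were 100% by the rule, 79.6%, 58.0% and 23.4%. In Tumor-897, 2.62% of thinned spots kept such a UMI, against 22.4% before.

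Of the genes outside the muscle lists, CRYAB stood out in muscle spots. It had 522 UMIs in muscle spots and 36 in nearby spots, a ratio of 44.8 (31.9 to 64.6), and was seen in 81.0% and 9.87% of them. Its level was 2.91 CPM farther away and 2.88 in Tumor-897. THBS4, a thrombospondin of muscle and tendon matrix, had 174 and 46 UMIs, a ratio of 11.7 (8.40 to 16.5). MEF2C, a transcription factor of muscle genes, had 63 and 57 UMIs, a ratio of 3.41 (2.35 to 4.97). COL3A1, a fibrillar collagen, had 1855 and 1669 UMIs, a ratio of 3.43 (3.21 to 3.67). MFAP5, of elastic microfibrils, had a ratio of 3.30 (2.37 to 4.59), and the histone gene HIST3H2A one of 3.34 (2.32 to 4.81). COL3A1 was not bound to the strip, with 361 CPM farther away and 276 in Tumor-897, against 850 in muscle spots and 248 in nearby ones. Beside the strip alone it was at 568 CPM at 1 step and 239 at 4 steps.

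Some of the other high genes have near-identical relatives, so their counts are uncertain. MTRNR2L6, MTRNR2L10 and MTRNR2L1 resemble a mitochondrial ribosomal RNA gene, and had ratios of 14.9 (11.8 to 19.1), 10.3 (7.06 to 15.3) and 4.37 (3.18 to 6.02). MT1M, a metallothionein, had 92 and 34 UMIs, a ratio of 8.36 (5.58 to 12.8). Its relative MT1X was lower in muscle spots at 0.63-fold (0.55 to 0.72). The beta-type globins HBB and HBD, known from red blood cells, had ratios of 9.34 (7.56 to 11.6) and 7.82 (5.07 to 12.4). HBB was seen in 36.9% of muscle spots and 12.8% of nearby spots, with 162 and 17.4 CPM, and 442 CPM in the segment at columns 33 to 46 against 32.3 at columns 80 to 119. For the strip against its own nearby spots, the log2 fold of HBB was 4.66 in place of 3.22 and that of HBD 3.58 in place of 2.97. Of the red blood cell list, HBA1 had 11 and 4 UMIs, and SLC4A1 and AHSP had none in muscle spots.

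Connective tissue transcripts were also more frequent in muscle spots. Of 11 fibroblast markers past the minimum, 3 were at least 2-fold higher (COL3A1, MFAP5 and PCOLCE, an enhancer of collagen processing, at 2.80-fold), none was lower, and the median log2 fold was 0.67 against -0.04 over all genes. Summed, the list stood at 2551 CPM in muscle spots, 1289 in nearby spots and 1362 farther away. COL1A1 and COL1A2 were at 1.59-fold and 1.65-fold. LUM, a collagen-binding proteoglycan, was at 0 UMIs in muscle spots and DCN at 1. In the rings, the summed list was 1745 CPM at 1 step, 1358 at 2, 1222 at 3 and 1124 at 4. SPARC, a matrix glycoprotein, was 1.68-fold higher (1.56 to 1.82) and LAMA4, a laminin of vessel and muscle basement membranes, 1.91-fold (1.33 to 2.73). Over 23 measured genes of the matrix and crosslinking list, 1 was at least 2-fold higher and the median log2 fold was 0.00.

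Macrophage and granulocyte markers were few in UMIs. Of 5 past the minimum, 3 were at least 2-fold higher, against 0.74% of all measured genes, with a median log2 fold of 1.13. For the strip against its own nearby spots this median was 0.89, under 2-fold, and over the alternatives it ranged from 0.64 to 1.17. The 3 higher genes were TYROBP at 32 and 34 UMIs in muscle and nearby spots, AIF1 at 39 and 51, and C1QB at 22 and 31. APOE was at 1.63-fold and CD68 at 1.12-fold (0.99 to 1.26). C1QC, CD163, ITGAM, S100A8 and S100A9 had no UMI in muscle spots, and the summed list was 276 CPM in muscle spots, 204 in nearby spots and 240 farther away. Smooth muscle and pericyte genes had 1 of 7 members at least 2-fold higher and a median log2 fold of -0.21, which was 0.24 for the strip against its own nearby spots. The higher one was the actin ACTG2 at 2.38-fold (1.81 to 3.13), with ACTA2 at 1.79-fold (1.51 to 2.13), while TAGLN and the pericyte markers PDGFRB, CSPG4 and MCAM had log2 folds of -0.21, -0.32, -0.40 and -0.30. Against the nearby spots of the strip alone, the log2 fold of ACTG2 was 1.99 in place of 1.25. MYH11, the smooth muscle myosin, was at 0, and reads of ACTA1 can be assigned to other actins, so these values are uncertain. None of 3 endothelial, 5 skin epithelium and 2 adipocyte markers passed 2-fold, with median log2 folds of -0.16, -0.07 and 0.40. CDH5, EMCN and CLDN5 of the endothelial list and KRT5, KRT1, DSG3 and KRTDAP of the skin list were at 0 UMIs in muscle spots, as were PLIN1, CIDEC and LEP of the adipocyte list. Of the nerve sheath list, PMP22 was at 1.37-fold and MBP at 0.94-fold. S100B and SOX10 were at 0. The part of these other cell types in the muscle values was not tested.

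As a share of the UMIs counted, genes of the tumor line were as frequent in muscle spots as beside them. The 20 listed MDA-MB-231 genes were all measured, none was past 2-fold in either direction, and their median log2 fold was -0.02. Their summed level was 31247 CPM in muscle spots, 28765 in nearby spots and 27496 farther away. S100A4 was 1.34-fold higher (1.27 to 1.41) and LGALS1, a galectin, 1.42-fold (1.37 to 1.47). The spots with 50 or more UMIs of the 6 genes also held the list, at 31188 CPM. Per spot the list was lower where muscle UMIs were more. It had 533, 410 and 300 UMIs per spot at 5 to 9, 10 to 49 and 50 or more UMIs of the 6 genes. In G2 and M phase genes, 30 of 30 lay within 2-fold with a median of -0.02, and in S phase genes 26 of 26 with a median of -0.01. The division genes CDC20 and BIRC5 were at 1.31-fold (1.14 to 1.49) and 1.23-fold (1.08 to 1.40).

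Hypoxia genes were lower in muscle spots, by an amount that depended on the surroundings they were set against. Of 26 measured members, 2 were at least 2-fold lower, all had a log2 fold below 0, and the median was -0.40. NDRG1, a hypoxia-induced stress gene, had 300 UMIs in muscle spots and 1939 in nearby spots, a ratio of 0.48 (0.42 to 0.54). PDK1, the kinase that holds pyruvate out of mitochondria, had 17 and 126 UMIs, a ratio of 0.42 (0.24 to 0.69). BNIP3, a mitophagy receptor, was at 0.57-fold (0.49 to 0.65). The summed level was 4584 CPM in muscle spots and 4901, 5289, 5375, 5596 and 7570 at 1, 2, 3, 4 and 5 or more steps, so it grew with distance. The contrast was smaller beside the strip alone. The list stood at 4497 CPM in the strip, 4873 in the nearby spots of the strip and 5842 in those of the lone spots only, and its median log2 fold was -0.19 for the strip against its own nearby spots. In muscle spots with 5 to 9, 10 to 49 and 50 or more UMIs of the 6 genes, the list was at 4585, 4435 and 4872 CPM. The spots richest in muscle transcripts were thus level with the nearby spots of the strip. NDRG1 then had a log2 fold of -0.51 in place of -1.07, and BNIP3 one of -0.44 in place of -0.82, while PDK1 stayed at -1.26. With a threshold of 10 UMIs for a muscle spot, the list median and NDRG1 were both at -0.07, near the median of all genes. In the rings around the strip alone, the list was at 4333, 4682, 4813 and 5102 CPM from 1 to 4 steps, so the first ring was below the strip. NDRG1 was at 122 CPM in the strip and 106 in that first ring, and PDK1 at 6.90 and 5.48, with overlapping counting intervals. Neither of these genes had a lower level in the strip than at its first step. BNIP3 did, at 106 and 124 CPM, also with overlapping counting intervals. Distance from muscle spots and from the tissue border go together here, with median border steps of 4 in muscle spots and 6, 8, 9, 9 and 13 in the rings of the rule. With nearby spots held to the border distances of muscle spots, NDRG1 had a log2 fold of -0.68.

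Transcripts of the mitochondrial genome were lower as well. None of its 12 measured genes passed 2-fold, and the median log2 fold was -0.57. Their sum was 11625 CPM in muscle spots and 16308 in nearby spots, and 7763 in the spots with 50 or more UMIs of the 6 genes. The median was -0.50 for the strip against its own nearby spots. Mitochondrial RNA that maps to no human gene is not counted, and its part in these levels was not tested. Nuclear genes of oxidative phosphorylation showed no such drop, with 36 of 36 within 2-fold and a median of 0.10, NDUFV2 being at 1.21-fold (1.07 to 1.37) and ATP5MC1 at 1.17-fold (1.07 to 1.28). MALAT1, a nuclear noncoding RNA chosen here after its values were seen, was at 423 CPM in muscle spots and 861 in nearby ones. In the spots with 50 or more UMIs of the 6 genes it was at 164.

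Stress genes followed no single course. Of 12 heat shock genes, 1 was at least 2-fold lower and the median log2 fold was -0.35. HSPA6, an inducible HSP70, had 18 UMIs in muscle spots and 215 in nearby spots, a ratio of 0.26 (0.15 to 0.42), and HSPA1A, uncertain beside its near-copy HSPA1B, was at 0.52-fold (0.42 to 0.63). For the strip against its own nearby spots these log2 folds were -0.48 in place of -1.95 and -0.30 in place of -0.96, and HSPA6 was at 48.9 CPM beside the lone spots only, against 9.62 beside the strip. With a threshold of 10 UMIs for a muscle spot, the log2 fold of HSPA6 was 0.27. Immediate early genes had 1 of 17 higher, FOS at 2.25-fold (1.54 to 3.27), while DUSP1 was at 0.65-fold (0.55 to 0.77). The log2 fold of FOS was 1.17, against -0.032 with a threshold of 3 UMIs for a muscle spot and 1.94 for the strip and its own nearby spots. In the NF-kB list, 1 of 14 was lower and the median was -0.03, with NFKB2 at 1.59-fold (1.24 to 2.04) and CXCL8 at 0.61-fold (0.41 to 0.87). Interferon genes had none of 24 past 2-fold, with IRF7 at 1.74-fold (1.35 to 2.22) and MX1 at 0.56-fold (0.38 to 0.82). The stress response of the endoplasmic reticulum had none of 18, and antigen presentation none of 12. Oxidative stress genes had MT1M alone of 19.

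Metabolic and signalling lists lay close to the median of all genes. Cholesterol synthesis had 1 of 20 lower, INSIG1, the sensor that holds back sterol synthesis, at 0.46-fold (0.37 to 0.57). Glycolysis genes outside the hypoxia list had 1 of 15 higher, ALDOA at 2.49-fold (1.68 to 3.67), while ALDOC was at 0.54-fold (0.40 to 0.72). Of 13 lipid genes none passed, with CPT1A, the entry enzyme of mitochondrial fat burning, at 1.62-fold (1.23 to 2.11) and SCD at 0.75-fold (0.68 to 0.82). TGF-beta and YAP targets had none of 19 past 2-fold and a median of -0.18, with ANKRD1 at 0.71-fold (0.63 to 0.79) and INHBA at 0.65-fold (0.50 to 0.84). Proteases had none of 20, with CTSB at 1.36-fold (1.20 to 1.53). Ribosomal protein genes had none of 31 and a median of 0.04. Of 13 muscle-secreted factors and their receptors, 1 was higher, IGFBP5, which binds insulin-like growth factors, with 26 and 30 UMIs. IGF1, the growth factor itself, had 26 and 9 UMIs, IGF1R was at 0.75-fold, and IGF2 and FGF2 had no UMI in muscle spots.

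The named genes that were lowest in muscle spots against nearby spots were mostly sparse. Besides HSPA6, NDRG1, PDK1 and INSIG1, they were CCL26, a chemokine, with 20 UMIs in muscle spots and 172 in nearby spots, and MBIP with 12 and 106. Against the nearby spots of the strip alone, CCL26 had a log2 fold of -0.44 in place of -1.48, and MBIP one of -1.74. The others, DIP2A, PIGA, LRIF1, VGLL3, TRAK2 and SMPDL3A, had 13 to 25 UMIs in muscle spots and log2 folds of -1.26 to -1.10. MBIP and PIGA were at least 2-fold lower under every alternative tried, the other 10 of these 12 genes under some only. All 12 genes named as highest outside the muscle lists were at least 2-fold higher under all of the alternatives that gave them a value.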

How the data were processed

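RNA of 1 section each of Tumor-899 and Tumor-897 was captured on Visium slides. The authors deposited a matrix of raw UMI counts for each section. Per the file headers it came from Space Ranger 1.3.0, and the submitters' processing notes name hg38. Counts were used as deposited, over spots under tissue with at least 500 UMIs. Steps are counted on the hexagonal array.

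UMIs were summed over the spots of a zone, scaled to CPM (per 1000000 UMIs of that zone), and compared as a ratio with an exact 95% interval conditional on both sums. Levels have exact Poisson and shares exact Clopper-Pearson intervals, and UMIs are molecules of 1 section, so all intervals cover counting error only. Spots are not replicates and both tumors are in 1 group, so no p-value was computed. A gene counts as past the fold at 2-fold, over genes with at least 50 UMIs in both zones together. Doublet callers were not run, because a spot can hold several cells.

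The members and gene lists were chosen with earlier results of these data known. The named genes are, at 100 or more UMIs and outside the 6 rule genes, the 12 highest inside the muscle lists, the 12 highest outside them and the 12 lowest by log2 fold, without clone-named genes and mitochondrial pseudogenes, from each list the 2 members farthest from a log2 fold of 0, the rule genes, and muscle list members at 1000 or more CPM in muscle spots. Other listed genes are named to account for lists, and a few are not reported here. The segments, the rule without MYLPF and the strip with its own nearby spots were chosen after the values were seen. Of 202 named or listed genes looked up, 198 matched by symbol in the RefSeq table on GRCh38.p14. Barcode columns left unused for lack of a sample numbered 0.

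Python 3.11.15 with numpy 2.4.6, scipy 1.17.1 and pandas 2.3.3 was used, with edgeR and DESeq2 for alternative scaling factors only. The ratio step was tested on simulated data. Alternatives changed the UMI minimum, the muscle threshold, the nearby zone, the scaling, the weighting of spots and the filter.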

Additional observations from a re-analysis of the deposited data

How the results depend on the processing

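The number of muscle spots in Tumor-899 ranged over 127 to 229 under the alternatives, against 168. In Tumor-897, against 4, it was 27 with a threshold of 3 UMIs and 0 with one of 10. The count of genes at least 2-fold higher, 78 as reported, was 221 against all other muscle-poor spots, 191 with a filter of 20 UMIs and 1908 with one of 1 UMI. The count of lower genes, 75 as reported, was 40 against nearby spots without a UMI of the 6 genes, 31 against those at 1 to 2 steps, 488 against all other muscle-poor spots, 43 against spots at the border distances of muscle spots and 133 with every spot weighted alike. It was 259 with a filter of 20 UMIs, 3417 with one of 1 UMI and 34 for the strip against its own nearby spots. After thinning to 2000 UMIs, spots with a UMI of the 6 genes were 88.7% in place of 100% of muscle spots in Tumor-899, 11.6% in place of 33.9% of its kept spots, and 2.62% in place of 22.4% of those in Tumor-897. The log2 fold changed sign for FOS (-0.032, threshold 3) and HSPA6 (0.27, threshold 10), and the cause was not tested. Of 30 named genes at least 2-fold higher, 27 stayed so in every alternative that gave a value, the exceptions being ALDOA, ACTG2 and FOS, and of 12 lower ones MBIP and PIGA did. With 1 section per tumor no replicate could be left out. No paired analysis was possible because each zone comes from 1 section and no test was made.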
